A study of Homo sapiens with 8 samples.

Results

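The lysosomal network was followed through 44 genes named for their roles, a choice made with earlier results of these data known: 3 transcription factors of the MiT/TFE family (TFEB, TFE3 and MITF), 4 lysosomal membrane proteins, 6 proteases, 15 glycosidases and sulfatases, 6 lipid hydrolases, activators and transporters, 5 genes of the proton pump (V-ATPase) and 5 autophagy genes. All 44 were found by gene symbol among the 13546 genes of the count table. The samples are 8 RNA-seq libraries from tumours that formed when human MDA-MB-231 cells were injected into nude mice: 4 from cells labelled CDK4KO, for a knockout of the kinase gene CDK4, and 4 from CDK4WT cells. MDA-MB-231 is an established triple-negative breast cancer line of mesenchymal type, and nude mice lack mature T cells but keep macrophages, fibroblasts and vessels. The labels give neither the way CDK4 was disrupted, nor whether the CDK4KO cells are 1 clone, nor the site of injection or the age of the tumours. The comparison asks whether tumours of CDK4KO cells express the lysosomal programme at another level.

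Lysosomes are acid compartments in which cells digest proteins, glycans, lipids and, through autophagy, their own organelles. The V-ATPase pumps protons into them, and the acid pH activates cathepsins and other hydrolases. When nutrients are plentiful, the kinase complex mTORC1 phosphorylates TFEB and TFE3 on the lysosomal surface and keeps them in the cytoplasm. When they are released into the nucleus, they bind a short palindrome (the CLEAR element, built round an E-box) in the promoters of many lysosomal genes. CDK4 and CDK6 have been described as kinases that phosphorylate TFEB and favour its exit from the nucleus, and the level of TFEB mRNA does not show where the protein is.

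The promoters were searched for that element next to the start site, in the exact spellings given below only. Genes without a window were not searched. In RefSeq windows from 250 bases before to 50 bases after each annotated start (GRCh38.p14), 31 of the 44 genes had a window, and 6 of these 31 (19.4%) held the palindrome TCACGTGA: ATP6V0D1, CTSA, GAA, GALNS, LAMP1 and MCOLN1. Of all 35116 windows in that table, 344 (0.98%) held it, and of the 10667 tested genes with a window, 240 (2.25%) did. The element was described in promoters of lysosomal genes, and the members were picked as such genes. Their higher share, here and for the forms below, is thus not a result. The palindrome reads the same on both strands and contains the E-box CACGTG, which was in the windows of 8 of the 31 genes (25.8%), of 12.2% of the tested genes with a window and in 7.26% of all windows. The 10-letter form, with a G before and a C after the palindrome, was in the windows of GAA, GALNS and MCOLN1 (9.68%), of 0.862% of the tested genes with a window and in 0.353% of all windows. The 4 promoters below belong to the genes of the 6 with the smallest p-values, each shown as a stretch of 100 bases, 5′ to 3′ on the strand of the gene, with the palindrome in capitals. The first copy printed begins 77 bases before the annotated start in GAA, 60 in ATP6V0D1, 29 in LAMP1 and 175 in GALNS.
GAA, chr17:80101458-80101557, plus strand: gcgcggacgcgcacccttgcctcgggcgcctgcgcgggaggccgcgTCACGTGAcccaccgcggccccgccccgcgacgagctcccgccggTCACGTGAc
ATP6V0D1, chr16:67481164-67481263, minus strand: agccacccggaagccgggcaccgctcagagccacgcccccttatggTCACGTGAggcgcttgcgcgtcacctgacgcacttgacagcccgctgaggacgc
LAMP1, chr13:113297139-113297238, plus strand: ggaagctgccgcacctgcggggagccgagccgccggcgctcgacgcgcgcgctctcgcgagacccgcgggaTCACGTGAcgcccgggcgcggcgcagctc
GALNS, chr16:88857069-88857168, minus strand: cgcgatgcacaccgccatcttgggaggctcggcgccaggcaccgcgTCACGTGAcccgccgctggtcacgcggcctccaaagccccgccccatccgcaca
The windows of GAA, LAMP1 and MCOLN1 held 2 copies each. The log2 fold changes of the 6 genes, CDK4KO minus CDK4WT, did not share a direction: -0.43 for GAA, 0.11 for ATP6V0D1, -0.11 for LAMP1, 0.08 for GALNS, -0.02 for MCOLN1 and -0.00 for CTSA. Over all 240 tested genes with the palindrome in a window the median log2 fold change was -0.01, with 116 above and 124 below 0, and over the 10667 tested genes with a window it was 0.01.

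The libraries held 30057000 to 33307000 counts in CDK4KO and 27841000 to 33618000 in CDK4WT. CDK4 itself stood at 111, 119, 125 and 134 CPM (counts scaled to library size) in CDK4KO replicates 1 to 4, against 115, 107, 116 and 112 CPM in CDK4WT replicates 1 to 4 (log2 fold change 0.12 ± 0.06, SE; edgeR quasi-likelihood test, adjusted p = 0.477). CDK4 mRNA was thus not lower in the libraries labelled CDK4KO, and since the kind of knockout is not given, this level cannot serve as a check of either. Exons of TSPAN31 overlap 43.2% of the CDK4 exons. The 6 tumour-cell markers were high in every library. VIM, the mesenchymal filament vimentin, was at 7807 to 11085 CPM in CDK4KO and 8927 to 11510 CPM in CDK4WT. KRT18, the lowest of them, was at 189.7 to 199.6 and 184 to 211 CPM. Of 5 genes listed as low or absent in a triple-negative line, 2 were measured, and neither was absent. ERBB2 was at 95.4 to 109 and 96.1 to 102 CPM and EPCAM at 8.69 to 11 and 7.25 to 11.1 CPM, CDK4KO given before CDK4WT. On the first principal component of all genes CDK4KO lay at -27.1 to -1.1 and CDK4WT at 4.1 to 15.4. CDK4KO replicate 1 stood apart on the second principal component of all genes, at -31.3 against -1.5 to 9.5 in the other libraries.

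No lysosomal gene passed the test between CDK4KO and CDK4WT tumours. With edgeR's quasi-likelihood test and Benjamini-Hochberg adjustment over all 13546 genes, 0 of the 44 members had an adjusted p under 0.05, where 8 genes or 0.0591% of the table did. The smallest adjusted p among the members was 0.183, for GAA. At an unadjusted p under 0.05 there were 4 members, 1 higher in CDK4KO (CTSL, 2.27% of the members, against 6.64% of all genes) and 3 lower (GAA, MANBA and NPC2, 6.82%, against 6.33% of all genes), so these shares were near or below the background. The genotypes did not overlap in 2 members, GAA and MANBA, both lower in CDK4KO (4.55%, against 3.81% of all genes), and in 0 members higher in CDK4KO (against 3.87% of all genes). DESeq2, which called 2.33% of the genes it tested, called GAA alone among the members (DESeq2 adjusted p = 0.0291). limma voom with library quality weights called 0 members, against 2.37% of all genes.

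The estimates were small, with standard errors of 0.05 (GLB1) to 0.19 (CTSD) on the log2 scale. The median log2 fold change of the 44 members was -0.03, with 13 above and 31 below 0, against a median of 0.00 over all genes, of which 51.2% were above 0. Without CDK4WT replicate 4 the split turned to 24 above and 20 below 0, with a median of 0.008. In 38 of 44 members the log2 fold change lay within 0.15 of 0, and its median size, sign aside, was 0.07, against 0.09 over all genes. The 95% interval lay inside a 2-fold change in either direction for all 44 members and inside a 1.5-fold change for 42 (not for GAA and CTSD). In bulk tumour RNA, fewer cells of a type and less RNA per cell cannot be told apart.

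**Figure D1:**
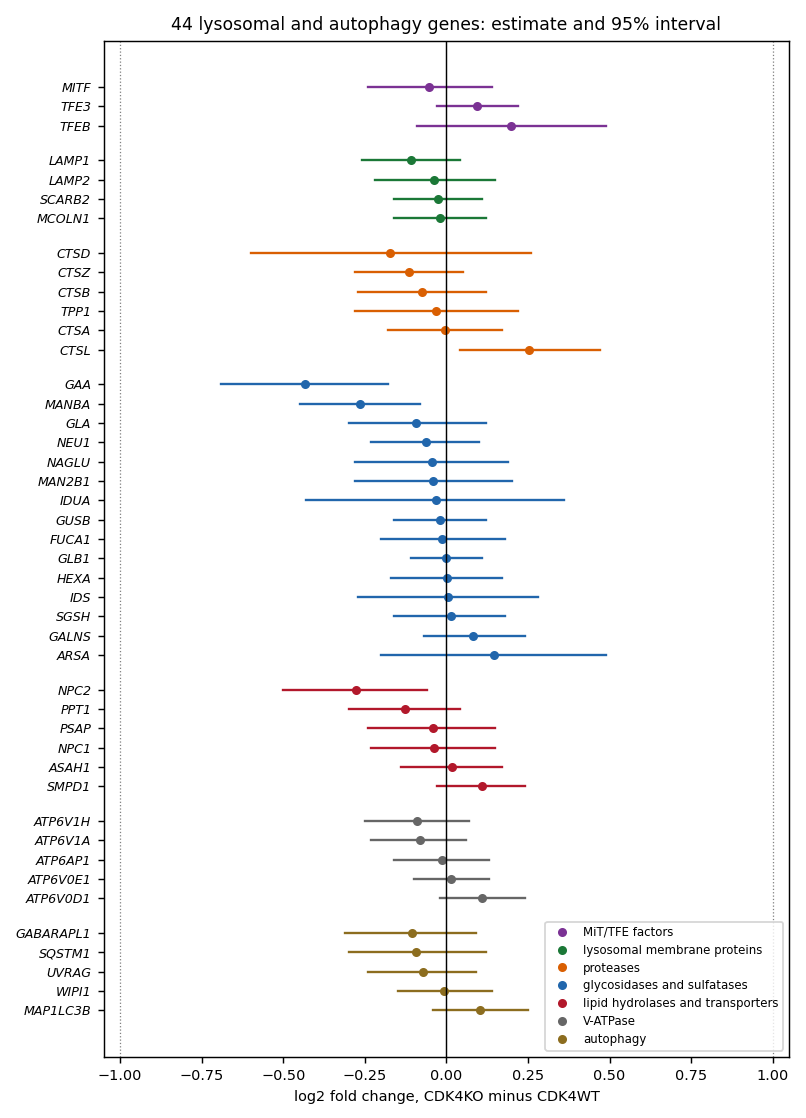
Log2 fold change, CDK4KO minus CDK4WT, of the 44 genes by role (points, edgeR estimates; bars, 95% intervals; dotted lines, a 2-fold change; n = 4 libraries per genotype). All intervals lie inside the dotted lines, and those of GAA, MANBA, NPC2 and CTSL do not reach 0.

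Among the MiT/TFE factors none passed the test. TFEB, the master activator of lysosomal genes, was at 8.55, 10.3, 11.4 and 10.9 CPM in CDK4KO and at 8.32, 8.50, 7.96 and 11.2 CPM in CDK4WT, replicates 1 to 4 (log2 fold change 0.20 ± 0.13, SE; edgeR adjusted p = 0.564; 95% interval -0.09 to 0.49). All 4 CDK4KO libraries lay above CDK4WT replicates 1 to 3, though replicate 1 only just, and CDK4WT replicate 4 lay among the highest CDK4KO libraries, so the groups overlapped. Leaving that library out moved the estimate to 0.32 (edgeR adjusted p = 0.35). TFE3, its close relative encoded on the X chromosome, was at 95.7, 92.3, 96.4 and 93.6 CPM in CDK4KO and at 84.2, 86.8, 86.3 and 96.7 CPM in CDK4WT (0.09 ± 0.06, edgeR adjusted p = 0.525), and here too CDK4WT replicate 4 was the library that made the groups overlap. MITF, the family member known best from melanocytes, was at 18.1, 19.9, 20.4 and 16.8 CPM in CDK4KO and at 20.2, 20.3, 20.0 and 17.5 CPM in CDK4WT (-0.05 ± 0.09, edgeR adjusted p = 0.841), with overlapping groups. Per kilobase of annotated exon, TFE3 was the most abundant of the 3 in each genotype, at 22.1 CPM per kb in CDK4KO and 20.7 in CDK4WT. MITF stood at 2.62 and 2.71, and TFEB at 1.83 and 1.59 CPM per kb, CDK4KO given before CDK4WT.

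**Figure D2:**
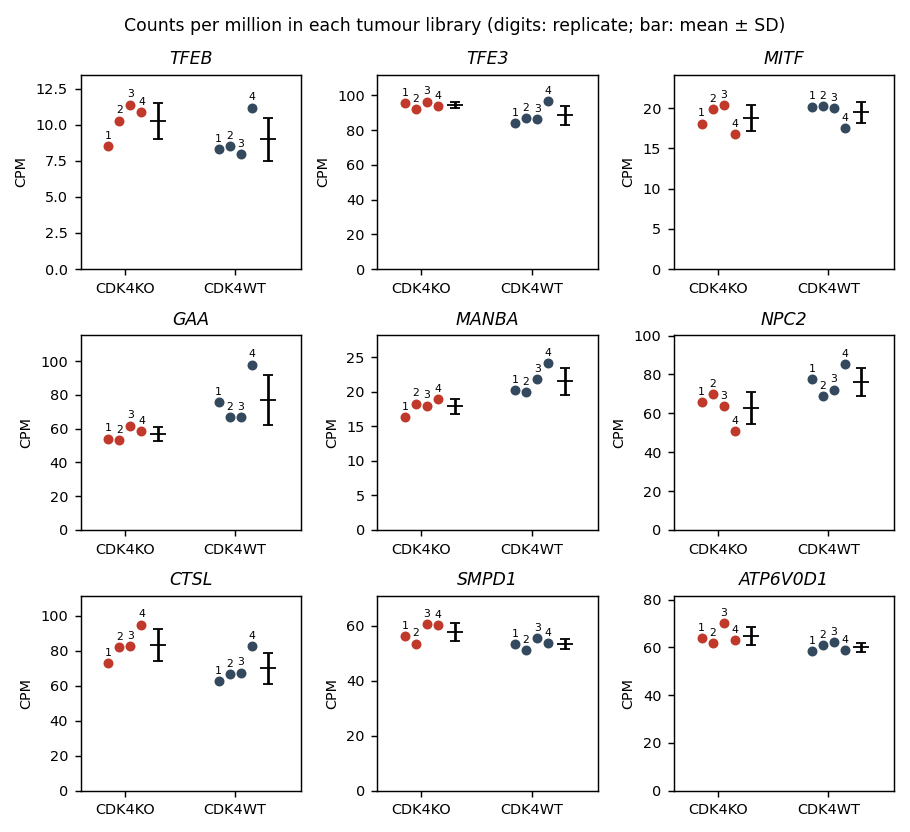
CPM of 9 genes in each library (red, CDK4KO; dark blue, CDK4WT; digits give the replicate; bars with a tick at the mean, mean ± SD, n = 4). GAA and MANBA are lower in every CDK4KO library than in every CDK4WT library, and CDK4WT replicate 4 is the highest CDK4WT library in TFEB, TFE3, GAA, MANBA, NPC2 and CTSL.

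The 4 lysosomal membrane proteins had estimates close to 0, and none passed. LAMP1, a heavily glycosylated protein that lines the inner face of the membrane, was at 221, 227, 233 and 233 CPM in CDK4KO and at 228, 236, 242 and 279 CPM in CDK4WT (-0.11 ± 0.07, edgeR adjusted p = 0.55). The groups overlapped, with CDK4WT replicate 4 highest. LAMP2, a related protein that serves as the receptor of chaperone-mediated autophagy, averaged 251 ± 31.3 CPM in CDK4KO and 258 ± 9.69 CPM in CDK4WT (SD, n = 4 each). SCARB2, the receptor that carries glucocerebrosidase to lysosomes, averaged 186 ± 9.28 and 189.5 ± 10.5 CPM, and MCOLN1, the calcium channel mucolipin, 32.1 ± 1.91 and 32.5 ± 0.713 CPM, CDK4KO given before CDK4WT. The 4 log2 fold changes ran from -0.11 to -0.02.

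Of the 6 proteases CTSL had the smallest p. CTSL (cathepsin L, a cysteine protease; chromosome 9, 87725519 to 87731393, hg38) was at 73.2, 82.1, 82.7 and 95 CPM in CDK4KO and at 62.9, 66.6, 67.5 and 82.7 CPM in CDK4WT (0.25 ± 0.10, 95% interval 0.04 to 0.47; edgeR adjusted p = 0.313). All CDK4KO libraries lay above CDK4WT replicates 1 to 3, and the groups overlapped through CDK4WT replicate 4 alone. The estimate was 0.18 to 0.34 when each library was left out in turn. It reached 0.40 (edgeR adjusted p = 0.0435) only without both that library and CDK4KO replicate 1, a choice made after seeing the data. CTSL has several annotated pseudogenes, so a part of its count is uncertain.

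The other 5 proteases did not pass, with log2 fold changes from -0.17 to -0.00. CTSZ (cathepsin Z, also called X, a carboxypeptidase) was at 280.3, 234, 249.9 and 223 CPM in CDK4KO and at 277, 272, 259.7 and 259 CPM in CDK4WT (-0.11 ± 0.07, edgeR adjusted p = 0.557), with overlapping groups. CTSB, cathepsin B, averaged 326 ± 5.89 CPM in CDK4KO and 343 ± 49.5 CPM in CDK4WT. That spread in CDK4WT came from replicate 4, at 417 CPM. CTSD, the aspartic protease cathepsin D, had the widest error of all members (-0.17 ± 0.19) and ran from 156 to 308 CPM in CDK4KO and from 204 to 267 CPM in CDK4WT. Without CDK4KO replicate 1 its log2 fold change was -0.40 (edgeR adjusted p = 0.135). Exons of other annotated genes cover 52.7% of its exons, so its count is uncertain. CTSA, protective protein of the sialidase complex, and TPP1, tripeptidyl peptidase, had log2 fold changes of -0.00 ± 0.08 and -0.03 ± 0.11, and 28.5% of the CTSA exons overlap those of other genes.

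GAA stood lowest among the glycosidases and sulfatases, and among all 44 genes. GAA (acid alpha-glucosidase, which breaks down glycogen in lysosomes and is deficient in Pompe disease; chromosome 17, 80101556 to 80119879, hg38) was at 54.0, 53.0, 61.8 and 58.5 CPM in CDK4KO and at 75.5, 66.8, 66.8 and 97.9 CPM in CDK4WT (-0.43 ± 0.12, 95% interval -0.69 to -0.18; edgeR adjusted p = 0.183). Every CDK4KO library was below every CDK4WT library. CDK4WT replicate 4 was far the highest, and without it the estimate was -0.30 (edgeR adjusted p = 0.198). The 20 nearest measured genes, 10 on each side, had a median of 0.06, and SGSH on the same chromosome had 0.01 ± 0.08. MANBA (beta-mannosidase, which trims mannose from glycoprotein fragments; chromosome 4, 102630770 to 102760994, hg38) was at 16.3, 18.3, 18.0 and 18.9 CPM in CDK4KO and at 20.2, 19.9, 21.8 and 24.1 CPM in CDK4WT (-0.27 ± 0.08, 95% interval -0.45 to -0.08; edgeR adjusted p = 0.234). These groups did not overlap either, and the estimate ran from -0.30 to -0.21 over the fits without 1 library. Its 20 neighbours had a median of -0.05. Annotated pseudogenes overlap 11.3% of the MANBA exons.

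The other 13 glycosidases and sulfatases lay between -0.09 and 0.15 on the log2 scale, and none passed. GLB1, the acid beta-galactosidase used as a senescence stain, was the most level of all 44 genes, at 67.6 to 69.6 CPM in CDK4KO and 67.2 to 71.2 CPM in CDK4WT (-0.00 ± 0.05, 95% interval -0.11 to 0.11). HEXA, whose loss causes Tay-Sachs disease, averaged 53.5 ± 4.01 and 53.5 ± 4.13 CPM, CDK4KO given before CDK4WT. The remaining glycosidases were GLA (alpha-galactosidase, -0.09 ± 0.10), GUSB (beta-glucuronidase, -0.02 ± 0.06), IDUA (alpha-iduronidase, -0.03 ± 0.18), MAN2B1 (alpha-mannosidase, -0.04 ± 0.11), NAGLU (alpha-N-acetylglucosaminidase, -0.04 ± 0.11), NEU1 (sialidase, -0.06 ± 0.07) and FUCA1 (alpha-fucosidase, -0.01 ± 0.09). The sulfatases IDS, SGSH, ARSA and GALNS, which act on heparan sulfate, sulfatide or keratan sulfate, had 0.01 ± 0.12, 0.01 ± 0.08, 0.15 ± 0.15 and 0.08 ± 0.07. GUSB and IDS have annotated pseudogenes, which leaves a part of their counts uncertain. Exons of other genes also overlap 21.2% of the MAN2B1, 17.4% of the IDS and 16.3% of the HEXA exons.

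Among the lipid genes NPC2 had the smallest p. NPC2 (the soluble cholesterol carrier that hands its load to NPC1; chromosome 14, 74476192 to 74494177, hg38) was at 65.6, 70.0, 63.8 and 50.8 CPM in CDK4KO and at 77.4, 68.7, 72.2 and 85.3 CPM in CDK4WT (-0.28 ± 0.10, 95% interval -0.50 to -0.06; edgeR adjusted p = 0.281). The groups overlapped only through CDK4KO replicate 2 and CDK4WT replicate 2, and without CDK4KO replicate 4, the lowest library, the estimate was -0.19. NPC1, the membrane protein that receives cholesterol from it, was at 199 ± 18.5 CPM in CDK4KO and 204 ± 20.4 CPM in CDK4WT (-0.04 ± 0.09). SMPD1, acid sphingomyelinase, was at 56.4, 53.6, 60.6 and 60.3 CPM in CDK4KO and at 53.5, 51.2, 55.7 and 53.8 CPM in CDK4WT (0.11 ± 0.06, edgeR adjusted p = 0.483). PPT1, palmitoyl-protein thioesterase, was at 99.2, 96.2, 85.7 and 86.1 CPM in CDK4KO and at 106, 103, 104 and 87.7 CPM in CDK4WT (-0.13 ± 0.08, edgeR adjusted p = 0.521). In SMPD1 and PPT1 the groups overlapped. Exons of CAP1 overlap 23.4% of the PPT1 exons. ASAH1, acid ceramidase, had 0.02 ± 0.07. PSAP, the precursor of the saposins that help hydrolases reach lipids, was the most abundant member per length, at 322 CPM per kb in CDK4KO and 331 in CDK4WT, where the median member, averaged over all libraries, had 12.3 CPM per kb.

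None of the proton pump genes passed, and their log2 fold changes ran from -0.09 to 0.11. ATP6V0D1, a subunit of the membrane-embedded V0 sector, was at 63.9, 61.9, 70.2 and 63.0 CPM in CDK4KO and at 58.4, 60.9, 62.3 and 58.8 CPM in CDK4WT (0.11 ± 0.06, edgeR adjusted p = 0.467), with a small overlap. ATP6V0E1, another V0 subunit, averaged 82.6 ± 1.51 CPM in CDK4KO and 81.9 ± 3.48 CPM in CDK4WT (0.01 ± 0.05), with annotated pseudogenes that make its count uncertain. ATP6V1A, the catalytic subunit of the cytosolic V1 sector, and ATP6V1H, which regulates that sector, had -0.08 ± 0.07 and -0.09 ± 0.07. The accessory subunit ATP6AP1, encoded on the X chromosome, had -0.01 ± 0.06.

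The autophagy genes did not pass either. MAP1LC3B, the ubiquitin-like protein LC3B that coats autophagosomes, was at 86.0, 90.2, 91.7 and 79.1 CPM in CDK4KO and at 77.9, 79.9, 78.1 and 87.4 CPM in CDK4WT (0.10 ± 0.06, edgeR adjusted p = 0.546), and the groups overlapped. It has a near-identical paralogue and a pseudogene, so its count is uncertain. SQSTM1, the cargo receptor p62, ran from 357 to 389 CPM in CDK4KO and from 355 to 485 CPM in CDK4WT (-0.09 ± 0.10), with CDK4WT replicate 4 highest. GABARAPL1, an LC3 relative, WIPI1, a phosphoinositide-binding protein of the forming autophagosome, and UVRAG, a partner of the lipid kinase VPS34, had -0.11 ± 0.09, -0.01 ± 0.07 and -0.07 ± 0.08. Exons of other genes overlap 28.1% of the WIPI1 and 22% of the SQSTM1 exons.

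Many members shared a pattern among libraries of the same genotype. CDK4WT replicate 4 was the highest CDK4WT library in 31 of 44 members (70.5%, against 32.7% of all genes), and its median deviation from the mean of the 8 libraries was 0.12 on the log2 scale over the members and -0.00 over all genes. The other libraries had median deviations of -0.05 to 0.02 over the members. The summed level of 20 hypoxia-response genes was also highest in that library, at 14035 CPM, against 10467 to 11909 CPM in the other CDK4WT libraries and 7907 to 11376 CPM in CDK4KO. So was that of the 6 tumour-cell markers, at 13842 CPM, against 11052 to 11639 and 9689 to 13287 CPM. The summed level of 7 macrophage markers was lowest there, at 20.1 CPM, against 22.7 to 33.2 and 24.6 to 26.6 CPM. The part of any of these in the lysosomal values was not tested.

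A further spread lay within CDK4KO, in genes picked out after their values were seen. CTSD was at 308, 156, 183 and 214 CPM, IDUA at 43.0, 23.6, 25 and 36.2 CPM, ARSA at 26.7, 16.3, 15.9 and 18.0 CPM, MAN2B1 at 88.4, 61.1, 68.1 and 71.4 CPM and NAGLU at 29.6, 21.5, 24.3 and 22.7 CPM in CDK4KO replicates 1 to 4. In each of the 5 genes replicate 1 was highest, at up to 1.67 times the mean of the other 3 (CTSD). Their transcripts are rich in G and C (60.9% to 68.3%, against a median of 52.6% over the members and 48.3% over all genes). Other members in that range did not all go the same way. In CDK4KO replicate 1 SGSH (62.1%) was at 1.14 times the mean of the other CDK4KO libraries, but GAA (64.1%) at 0.934 and MCOLN1 (60.9%) at 0.943 times. Across the 44 members, the deviation of a library from the other libraries of its genotype correlated with GC content at r = 0.39 in CDK4KO replicate 1, -0.76 in CDK4KO replicate 2, -0.12 in CDK4KO replicate 3 and 0.43 in CDK4KO replicate 4. In CDK4WT replicates 1 to 4 it was 0.04, -0.07, -0.52 and 0.30. These correlations run across genes that share the same libraries, and over 12282 genes they were between -0.21 and 0.15. The part of GC content in the values was not tested.

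**Figure D3:**
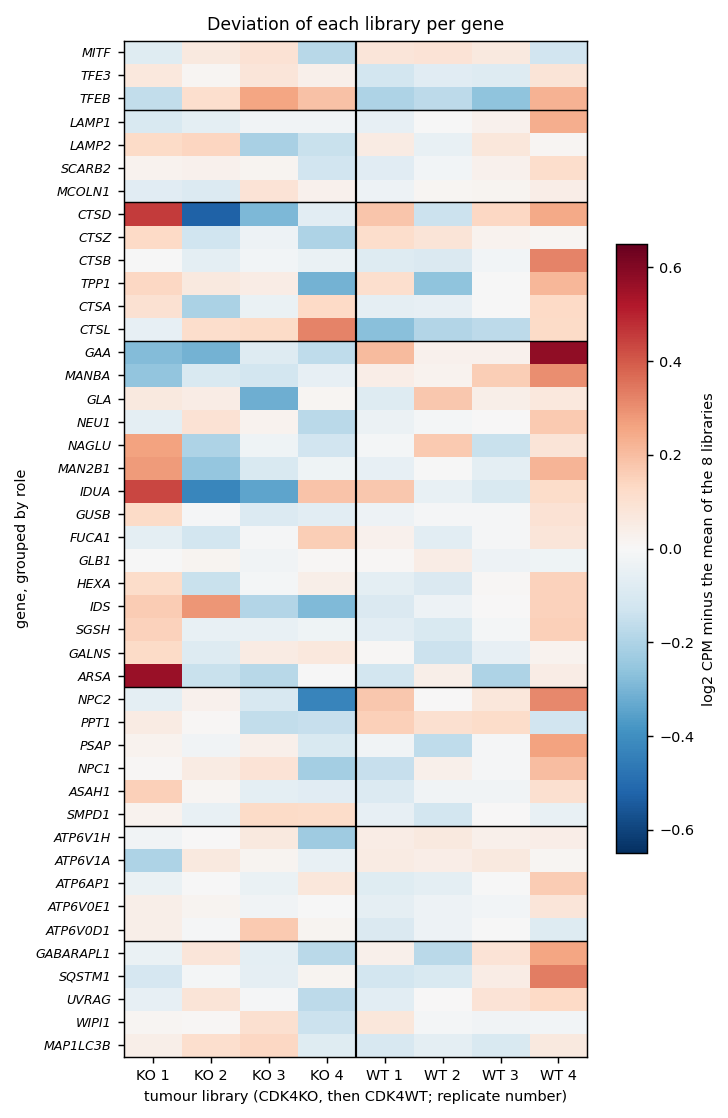
Log2 CPM of each of the 44 genes minus its mean over the 8 libraries (red, higher; blue, lower; CDK4KO libraries left, CDK4WT libraries right; black lines separate the roles). CDK4WT replicate 4 is red across most rows, and CTSD, IDUA and ARSA are among the reddest in CDK4KO replicate 1.

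Other cells of the tumour were looked at through their markers. Mouse macrophages are rich in lysosomes, and the labels do not say how reads from mouse cells were handled. Of 12 macrophage markers 7 were measured. The other 5 (CD68, ITGAM, CD163, TYROBP and FCER1G) were not found in the count table, which holds only genes above 1 CPM in at least 4 libraries. The summed level of the 7 measured markers was 24.6 to 26.6 CPM in CDK4KO and 20.1 to 33.2 CPM in CDK4WT, which overlap. Of these 7, 0 had an edgeR p under 0.05, adjusted or not. CSF1R, the macrophage growth factor receptor, was the highest of them at 12.3 ± 0.654 and 13.5 ± 3.70 CPM, CDK4KO given before CDK4WT, and CD14 was at 1.82 ± 1.02 and 1.11 ± 0.173 CPM. Fibroblast markers (4 of 7 measured) summed to 682 to 1178 CPM in CDK4KO and 775 to 1192 CPM in CDK4WT. Endothelial markers (3 of 5) summed to 19.6 to 24.8 and 19.7 to 20.6 CPM, muscle markers (2 of 4) to 3.96 to 8.57 and 6.85 to 26.2 CPM, and the measured fat marker PLIN1 (1 of 3) stood at 0.723 to 1.26 and 1.18 to 2.58 CPM, CDK4KO given before CDK4WT. Both measured muscle genes, DES and ACTA1, and PLIN1 were lower in CDK4KO at an unadjusted p under 0.05 (against 6.33% of all genes). PECAM1, an endothelial marker, was higher (0.34 ± 0.13, 33.3% of the measured endothelial markers, against 6.64% of all genes). None of them passed the adjusted test. DES was at 0.684 to 1.5 CPM in CDK4KO and 1.26 to 3.89 CPM in CDK4WT. DES and PLIN1 were above 1 CPM in every CDK4WT library but not in every CDK4KO library. Their place in the count table thus required high CDK4WT values, and their lower level is not a result. The part of host cells in the lysosomal counts was not tested.

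Around the 44 members, 5 wider lists of the same pathway gave no call over all genes with edgeR either. Of 36 further lysosomal enzymes 5 were lower and 0 higher at an unadjusted p under 0.05 (13.9%, against 6.33% of all genes lower, and 0%, against 6.64% higher), with a median log2 fold change of 0.00. SCPEP1, a serine carboxypeptidase, was at 23.6 ± 1.5 CPM in CDK4KO and 30.6 ± 1.41 CPM in CDK4WT (-0.38 ± 0.07; edgeR adjusted p = 0.0749, DESeq2 adjusted p = 0.000556, limma voom adjusted p = 0.0135). CTSH, the aminopeptidase cathepsin H, was at 5.75 ± 0.352 and 8.20 ± 0.898 CPM (-0.51 ± 0.11; edgeR adjusted p = 0.114, DESeq2 adjusted p = 0.00984, limma voom adjusted p = 0.0268), CDK4KO given before CDK4WT. In SCPEP1 and CTSH every CDK4KO library was below every CDK4WT library. Of the 36 enzymes, 4 separated in this direction (11.1%, against 3.81% of all genes) and 1 in the other (2.78%, against 3.87%). PRCP, another serine carboxypeptidase, and CTSV, the closest relative of cathepsin L, also separated, with -0.16 ± 0.06 and -0.85 ± 0.27. But CTSV was at only 0.659 ± 0.231 CPM in CDK4KO and 1.18 ± 0.237 CPM in CDK4WT. Every gene of the count table is above 1 CPM in at least 4 libraries, and CTSV was so only in the 4 CDK4WT libraries. Its place in the table thus required high CDK4WT values, and neither its separation nor its count among the 5 lower enzymes is a result.

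The 16 further V-ATPase genes, assembly factors included, had a median of 0.06, with 11 above 0 and none with an unadjusted p under 0.05. DMXL1 (0.16 ± 0.07), an assembly factor, and ATP6V0B (0.09 ± 0.05), a proton-carrying subunit, were higher in every CDK4KO library than in every CDK4WT library. They were the 2 of 16 that did so (12.5%, against 3.87% of all genes), and 0 separated lower (against 3.81%). WDR7 and DMXL2 overlapped (0.14 ± 0.08 and 0.13 ± 0.10). Of 47 membrane and trafficking genes 3 were higher (6.38%, against 6.64% of all genes) and 6 lower (12.8%, against 6.33%) at an unadjusted p under 0.05. The genotypes did not overlap in 1 of the 47 higher in CDK4KO and 1 lower (2.13% each, against 3.87% and 3.81% of all genes). Their smallest p-values belonged to LAPTM4B (-0.23 ± 0.07) and LITAF (-0.54 ± 0.18, with no overlap between genotypes), both late endosomal membrane proteins, CLN8 (-0.31 ± 0.11), which helps export lysosomal enzymes from the endoplasmic reticulum, and ABCB9 (0.23 ± 0.08), a lysosomal peptide transporter.

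Of 38 genes of the mTORC1 and Rag pathway, which holds TFEB in the cytoplasm, 3 were higher (7.89%, against 6.64% of all genes) and 2 lower (5.26%, against 6.33%) at an unadjusted p under 0.05, shares near the background, with a median of -0.02. CASTOR2, which belongs to a family of arginine sensors, was at 19.8 to 24.8 CPM in CDK4KO and 16.0 to 18.5 CPM in CDK4WT (0.36 ± 0.09; edgeR adjusted p = 0.163, DESeq2 adjusted p = 0.0322, limma voom adjusted p = 0.0509). SESN3, a sestrin that restrains mTORC1, was at 34.9 to 51.4 and 19.3 to 37.1 CPM (0.64 ± 0.20; edgeR adjusted p = 0.234, DESeq2 adjusted p = 0.032, limma voom adjusted p = 0.13), and AKT1S1, the mTORC1 inhibitor PRAS40, had 0.30 ± 0.09, CDK4KO given before CDK4WT. RRAGD, a Rag GTPase that is itself a known TFEB target, had -0.30 ± 0.11. So CASTOR2 separated the genotypes, while SESN3, AKT1S1 and RRAGD overlapped. Of the 38 genes, 1 separated higher and 1 lower in CDK4KO (2.63% each, against 3.87% and 3.81% of all genes).

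Of 45 autophagy core genes 6 were lower (13.3%, against 6.33% of all genes) and 0 higher (against 6.64%) at an unadjusted p under 0.05, with a median of 0.02. VMP1, a membrane protein needed to form autophagosomes, was at 351 to 393 CPM in CDK4KO and 399.8 to 462 CPM in CDK4WT (-0.24 ± 0.06; edgeR adjusted p = 0.183, DESeq2 adjusted p = 0.0173, limma voom adjusted p = 0.0436). ULK2, a kinase that starts autophagy, and MAP1LC3A, an LC3 relative, had -0.55 ± 0.17 and -0.52 ± 0.17. VMP1, ULK2 and MAP1LC3A separated the genotypes. Of the 45 genes, 4 separated lower in CDK4KO (8.89%, against 3.81% of all genes) and 1 higher (2.22%, against 3.87%). MAP1LC3A had an adjusted p of 0.245 with edgeR, 0.139 with DESeq2 and 0.033 with limma voom, and without CDK4KO replicate 1 its estimate was -0.71 (edgeR adjusted p = 0.0328). WDR45B, a WIPI-family protein, had -0.18 ± 0.07, with a small overlap. The list also holds the mitophagy receptor BNIP3, which is a hypoxia gene. Hypoxia genes were lower in CDK4KO as a list chosen with that result known: all 20 were negative, with a median of -0.53. PFKFB3 and PFKFB4 were at -0.76 ± 0.13 and -0.77 ± 0.13, CA9 at -1.26 ± 0.21 and HK2 at -0.65 ± 0.12. Of the 20, 0 had an edgeR adjusted p under 0.05 (against 0.0591% of all genes). An unadjusted p under 0.05 was found in 19, all lower (95%, against 6.33% of all genes). In 10 the genotypes did not overlap, again lower (50%, against 3.81% of all genes). DESeq2 gave adjusted p-values of 7.36e-08 for CA9 and 5.09e-05 for HK2, and limma voom 0.0533 for CA9 and 0.0153 for HK2.

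**Figure D4:**
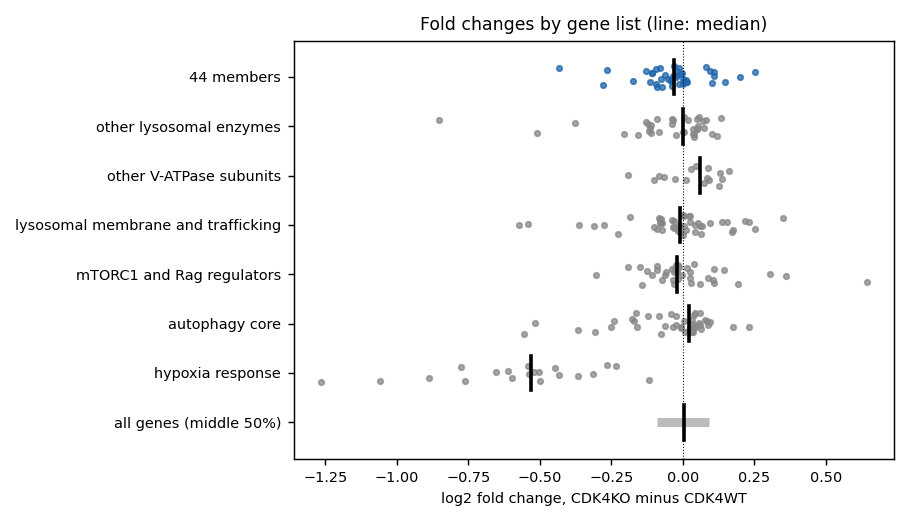
Log2 fold changes, CDK4KO minus CDK4WT, of the 44 members (blue) and the genes of the wider lists (grey); black lines are medians, and the bar at the bottom spans the middle 50% of all genes. The medians of the lysosomal and autophagy lists lie between -0.03 and 0.06, and that of the hypoxia list at -0.53.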

How the data were processed

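The authors deposited raw read counts per Ensembl gene for 8 libraries, 4 CDK4KO and 4 CDK4WT, not normalized. The tools cutadapt, STAR 2.7.11a, featureCounts 2.0.4 and DESeq2 1.46.0 and the build hg38 are named in the submitters' processing notes; which annotation and strand setting were used, and what was done with mouse reads, is not stated there, so overlapping genes may share counts. Every deposited gene is above 1 CPM in at least 4 libraries. Columns of CDK4KO carry the library numbers and were matched through them to replicates 1 to 4.

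Symbols were found for 13524 of 13546 identifiers, and positions and exon lengths (GENCODE 29, hg38) for 13455. The test was edgeR 4.0.16 run in R 4.3.3 (TMM, filterByExpr, which removed 0 genes, robust quasi-likelihood test, Benjamini-Hochberg over all genes, threshold 0.05; common biological coefficient of variation 11.7%). Standard errors and 95% intervals follow from the F statistic. Log2 CPM used a prior count of 2. The counting error is small for well-counted genes, but larger for those near 1 CPM, such as CTSV, PLIN1, DES and CD14, where it adds to the spread. The p-values measure the spread between libraries, since the labels do not say that tumours came from separate mice. In 3 simulations on 13546 genes drawn from these libraries' means, 200 genes were changed in each. The test recovered 71.2% of genes changed 1.5-fold, 87.8% of those changed 2-fold and 96.6% of those changed 4-fold. Of the calls, 5.51% were false. Whether these shares hold for the tumour libraries was not tested. Among the tumour libraries 8 genes passed, and CA9, at a log2 fold change of -1.26, did not (edgeR adjusted p = 0.0648). Alternatives were DESeq2 1.42.0, limma 3.58.1 voom with quality weights, other scalings, filters and dispersions, a replicate block and each library left out.

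The members and lists were chosen with earlier results of these data known. Values per library are given for TFEB, TFE3, MITF, CDK4, the 12 members with the smallest p and those that separate the genotypes, and of each wider list up to 4 genes with the smallest p. A member whose groups do not overlap is counted on CPM.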

Additional observations from a re-analysis of the deposited data

Results flagged for a closer look

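A library that lay far from the other 3 of its genotype, by Dixon's test at the 95% level, was found in 10 of 138 genotype groups of the 69 genes examined, where chance gives about 1 in 20. Of these, 7 were among the 44 members. In CDK4WT, replicate 4 was high in TFEB (11.2 CPM, the others 7.96 to 8.50) and CTSB (417 CPM, the others 313 to 329), and low in MITF (17.5 CPM, the others 20.0 to 20.3), ATP6V0B (77.0 CPM, the others 84.5 to 85.7) and LAPTM4B (79.9 CPM, the others 89.2 to 90.9). CDK4WT replicate 1 was high in WIPI1 (40.5 CPM, the others 37.9 to 38.3) and low in RRAGD (17.2 CPM, the others 21.4 to 21.5). In CDK4KO, replicate 1 was high in SGSH (41.4 CPM, the others 36.0 to 36.6), replicate 3 low in GLA (20.8 CPM, the others 26.2 to 27.1) and replicate 4 low in SCARB2 (172 CPM, the others 190.2 to 192).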

How the results depend on the processing

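Over 18 alternative settings, 1 of them (CDK4KO replicate 1 and CDK4WT replicate 4 left out together) chosen after seeing the data, 0 members passed an adjusted p of 0.05 except 1 (GAA) with DESeq2 and 1 (CTSL) without those 2 libraries. The members' median log2 fold change was -0.032 with all libraries and -0.050 to 0.008 when each library was left out, so its sign was not stable. It moved by less than the spread between libraries (0.056), but that spread is larger than the median itself, so this is a weak check. Members under an unadjusted p of 0.05 numbered 4 with all libraries, where 6.64% of all genes passed higher and 6.33% lower. They numbered 10 with limma voom (20.6% of all genes passed there), 7 without the 2 libraries and 3 to 6 without 1 library. Without CDK4KO replicate 1 they were 6, and 17.7% of all genes passed there. So with limma voom and without CDK4KO replicate 1 more of all genes passed too. Without the 2 libraries the calls over the whole table also rose, from 8 to 147. None of these counts is a result about the members alone. Genes called over the whole table numbered 8, against 14 with library size as the only scaling (50% higher in CDK4KO, against 75%), 315 with DESeq2, 321 with limma voom, 20 with a mean of at least 100 counts, 13 with the replicate block, 147 without the 2 libraries, and 0 to 183 without 1 library. Replicate numbers are shared between genotypes. Same-numbered libraries did not deviate together in replicates 1 to 3 (correlations -0.0313, -0.0142 and 0.00348). In replicate 4 the correlation was 0.194, and only there was the same-numbered CDK4WT library the closest match. The replicate block changed no member's call. The sign changed in 66 of 748 estimates of the members under the other 17 settings, in 24 members, by more than 1 SE in 3: ARSA without CDK4KO replicate 1 (-0.05, range without 1 library -0.05 to 0.23), SQSTM1 without CDK4WT replicate 4 (0.01, range -0.14 to 0.01) and CTSB without CDK4WT replicate 4 (0.03, range -0.12 to 0.03). Without both libraries SQSTM1 was at 0.03, ARSA at -0.02, CTSB at 0.02 and ATP6AP1 at 0.05. The cause was not tested. The lowest member, TFEB, averaged 9.65 CPM, and the part of depth was not tested.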
